A study of Mus musculus with 3 samples.

Results

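The genes described here encode the subunits of oxidative phosphorylation. They were taken by name: symbols that start with Ndufa, Ndufb, Ndufc, Ndufs, Ndufv, Cox4, Cox5, Cox6, Cox7, Cox8, Uqcr or Atp5, the genes Sdha, Sdhb, Sdhc and Sdhd, and the mRNAs of mitochondrial DNA (mt-Nd, mt-Co, mt-Cytb and mt-Atp). Names that hold -ps, which marks pseudogenes, were left out. The rule gave 109 genes of the 27886 listed in any of the 3 tables, 96 in the nucleus and 13 in mitochondrial DNA. All 109 were listed in mESCs and CPCCs and 108 in CBs. The name rule also took in 8 complex I assembly factors (Ndufaf genes) and 4 extra copies of subunit genes.

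Single-cell RNA-seq was done on 3 cultures of male F1 mouse cells from a C57BL/6J mother and a CAST/EiJ father (strain label C57BL/6 x CAST/EiJ). The mESCs are embryonic stem cell clones from 3 blastocysts, grown in 2i medium with LIF. CPCCs, labelled cardiac precursor cells, came from embryoid bodies of those clones, were kept in enrichment medium with EGF and Fgf2 and were taken at the fourth passage. CBs, labelled mature cardiac cells, are beating cardiac bodies picked by hand from medium with ascorbic acid; cells of every culture were caught on a Fluidigm C1 and their polyadenylated RNA was read as full-length cDNA without strand.

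The tables hold 215 mESCs, 175 CPCC cells and 232 CB cells, with a median of 1528316, 1437414 and 1397869 counts per cell. Each culture is 1 sample, so no difference below was tested and no p-value is given. The column names divide the cells into 3 mESC pools, 2 CPCC pools and 3 CB pools; these are not replicates with a known source, and their values are printed to show how far parts of 1 culture differed. The labels were set beside marker genes. All 10 pluripotency markers passed 5 CPM (counts per 1000000 counts of a culture or pool) in mESCs and in CPCCs, where their summed level was 10523 and 3348 CPM. In CBs the sum was 169 CPM, and Pou5f1, Dppa5a and Fgf4 were not listed. All 12 cardiomyocyte markers were listed in CBs, 9 of them over 5 CPM, with sums from 22.8 to 906 CPM in the pools, against 64.4 to 94.2 in mESC pools. The summed fibroblast markers ran from 482 to 15717 CPM in the CB pools. Of the 219 CB cells with at least 100000 counts, 8 carried 5 or more cardiomyocyte markers at 10 or more counts each and 109 as many fibroblast markers, so values of the whole CB culture are not values of cardiomyocytes. The same rule took in 5 of 203 mESCs for cardiomyocyte and 18 for epithelial markers, so a cell that carries a list is not thereby of that type.

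Oxidative phosphorylation passes electrons from NADH and succinate through complexes I to IV of the inner mitochondrial membrane to oxygen, and complex V, the ATP synthase, uses the proton gradient that I, III and IV build. Mitochondrial DNA encodes the membrane core of complexes I, III, IV and V. All other subunits, with the whole of complex II, are made from nuclear genes and imported, so that a working complex needs products of both genomes. The heart is among the tissues richest in these complexes, and several subunits of complex IV have a form used mainly in heart and skeletal muscle.

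Nuclear subunit mRNAs took a smaller part of the counts in both differentiated cultures than in stem cells. The 96 nuclear genes made up 2.82% of all counts in mESCs, 1.95% in CPCCs and 1.81% in CBs. The mESC pools stood at 2.59%, 2.93% and 2.92%, the CPCC pools at 2.10% and 1.81%, and the CB pools at 1.75%, 1.90% and 1.76%. Every mESC pool was above every CPCC and CB pool, while the CPCC and CB pools overlapped. On the log2 scale the share was -0.53 in CPCCs and -0.64 in CBs relative to mESCs, which both use as reference. The CB share differed from that of CPCCs by -0.11. The difference was 0.0016 without CPCC pool 1 and -0.21 without CPCC pool 2. It was -0.29 when scaled by TMM factors and -0.30 by DESeq2 size factors. The 95% Poisson interval of the mESC share was 2.818% to 2.822%. It takes reads as independent counts and is far narrower than the range of the mESC pools.

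The 5 complexes were not lowered alike. Complex IV, cytochrome c oxidase, took 0.596% of counts in mESCs, 0.360% in CPCCs and 0.386% in CBs. Complex V took 1.04%, 0.697% and 0.556%, and complex III, the cytochrome bc1 complex, 0.314%, 0.214% and 0.183%. In CPCCs the lowest ratio to mESCs was that of complex IV, at -0.73, and in CBs that of complex V, at -0.90. Complex I, NADH dehydrogenase, had ratios of -0.39 and -0.32. Complex II, succinate dehydrogenase, had -0.22 and -0.50.

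**Figure D1:**
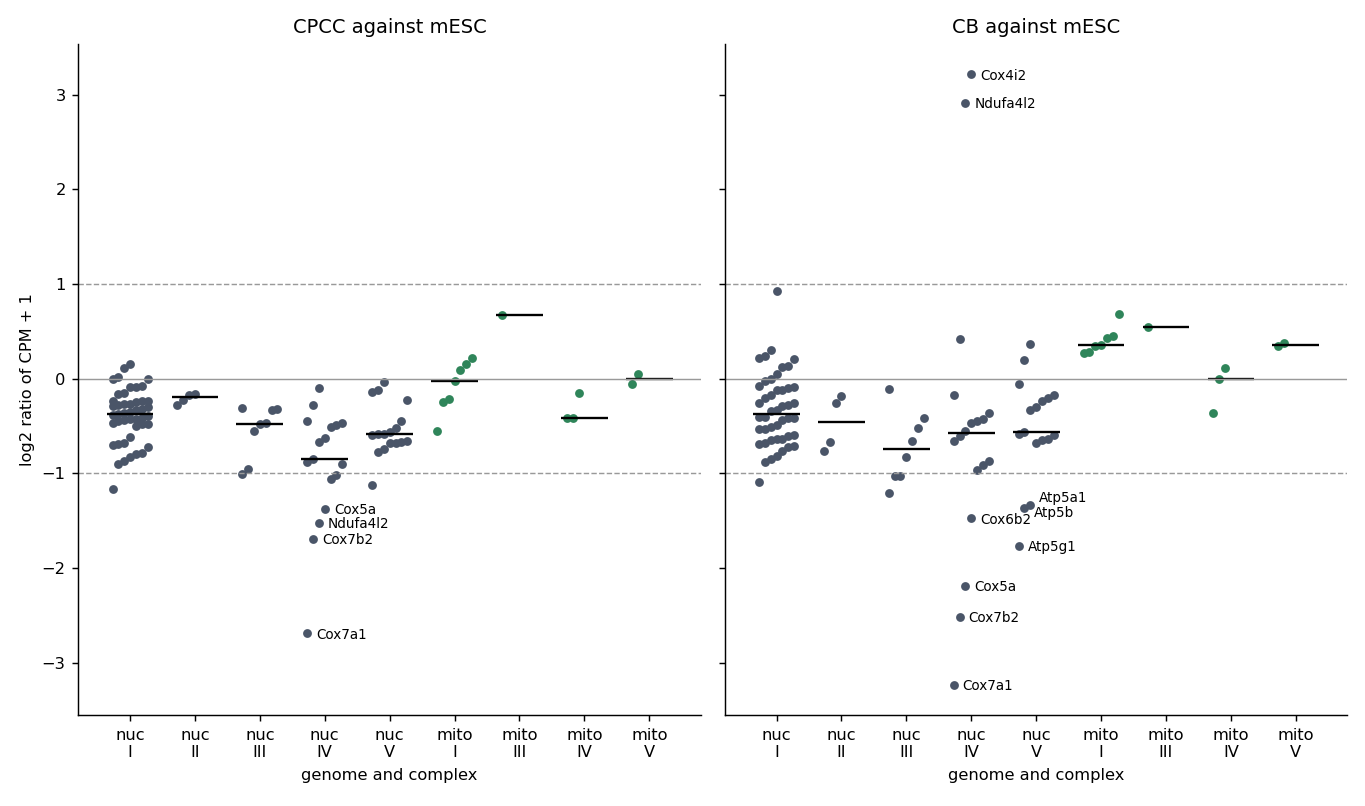
Log2 ratio of CPM + 1 of each gene with at least 5 CPM in 1 culture of the pair, by genome and complex, for CPCCs (left) and CBs (right) against mESCs; black bars are medians and dashed lines mark the 2-fold limits. Most nuclear genes lie below 0 in both panels, complex IV holds the lowest (Cox7a1, -2.69 and -3.23), and Cox4i2 and Ndufa4l2 stand alone above the upper limit in CBs.

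Gene by gene, the ratio was computed from CPM + 1 where a gene had at least 5 CPM in 1 culture of the pair, and a gene was counted as higher or lower from 2-fold on. In CPCCs against mESCs, 0 of 105 such genes were higher, where 17.8% of all genes were, and 9 were lower, where 7.94% of all genes were. Of the 92 nuclear genes, 88 had a ratio below 0, with a median of -0.46 against 0.0031 over all genes. In 64 of the 92, both CPCC pools were below all 3 mESC pools, an order that held for 22.1% of all genes. The shift was therefore broad and mostly under 2-fold, and the count of 9 moved with single pools: it was 4 without mESC pool 2, and 14 without mESC pool 1 or without CPCC pool 1.

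In CBs against mESCs, 2 of 106 genes were higher (31.4% of all genes) and 11 lower (15.2% of all genes). Of 93 nuclear genes 80 had a ratio below 0, with a median of -0.45 while the median of all genes was 0.27. In 47 of the 93 all CB pools were below all mESC pools, against 22.8% of all genes. With TMM factors the median of all genes was 0.10 and that of the nuclear genes -0.62, and with DESeq2 size factors they were 0.048 and -0.68. The distance of the nuclear genes from all genes was -0.72, -0.73 and -0.73 under the 3 scalings.

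Between CBs and CPCCs the nuclear genes had no common sign, though most lay below the median of all genes. Of 104 genes 3 were higher (20.4% of all genes) and 1 lower (10.1% of all genes). Of 91 nuclear genes 49 lay above 0 and 42 below, with a median of 0.021 against 0.18 over all genes. With TMM factors 62 lay below 0 and the median was -0.16 against -0.0035 over all genes. Below the median of all genes were 60 of the 91, also with TMM factors, DESeq2 size factors or equal weight per cell. The distance from that median was -0.16, -0.16, -0.16 and -0.19 under these settings. The count lower by 2-fold was 5 without CPCC pool 2, 2 without CB pool 2 and 0 without CB pool 3. It was 3 with TMM or DESeq2 size factors.

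The promoters of 4 nuclear genes are shown because these genes span the pattern. Cox7a1 had the lowest ratio to mESCs of all in both cultures, Cox5a the lowest of the abundant complex IV genes, Uqcrc1 the lowest of complex III in CBs, and Cox6a1 is the general form of a subunit that also has a muscle form. Each window runs from 250 bases before to 50 after the start of the gene, from RefSeq on GRCm38.p6, written 5′ to 3′ on the gene's strand: Cox5a at chr9:57520982-57521281 (+), Cox7a1 at chr7:30183921-30184220 (+), Cox6a1 at chr5:115348909-115349208 (-) and Uqcrc1 at chr9:108936398-108936697 (+). Capitals mark matches to 3 motifs, searched on both strands.
Cox5a: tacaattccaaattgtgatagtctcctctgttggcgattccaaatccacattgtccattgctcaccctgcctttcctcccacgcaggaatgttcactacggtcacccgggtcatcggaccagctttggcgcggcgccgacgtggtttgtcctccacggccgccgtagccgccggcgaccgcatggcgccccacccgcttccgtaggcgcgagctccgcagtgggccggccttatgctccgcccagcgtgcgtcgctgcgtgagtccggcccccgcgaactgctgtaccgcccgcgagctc
Cox7a1: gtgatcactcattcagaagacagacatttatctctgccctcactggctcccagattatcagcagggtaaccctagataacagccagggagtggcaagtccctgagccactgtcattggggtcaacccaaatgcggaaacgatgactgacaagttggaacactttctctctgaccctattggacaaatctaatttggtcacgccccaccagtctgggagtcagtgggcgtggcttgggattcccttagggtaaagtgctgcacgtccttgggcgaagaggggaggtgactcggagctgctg
Cox6a1: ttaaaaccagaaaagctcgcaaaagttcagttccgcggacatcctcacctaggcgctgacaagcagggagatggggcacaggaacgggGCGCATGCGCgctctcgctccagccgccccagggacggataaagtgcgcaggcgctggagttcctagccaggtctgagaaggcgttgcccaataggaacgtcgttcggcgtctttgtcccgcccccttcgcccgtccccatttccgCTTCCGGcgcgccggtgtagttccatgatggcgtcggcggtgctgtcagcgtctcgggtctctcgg
Uqcrc1: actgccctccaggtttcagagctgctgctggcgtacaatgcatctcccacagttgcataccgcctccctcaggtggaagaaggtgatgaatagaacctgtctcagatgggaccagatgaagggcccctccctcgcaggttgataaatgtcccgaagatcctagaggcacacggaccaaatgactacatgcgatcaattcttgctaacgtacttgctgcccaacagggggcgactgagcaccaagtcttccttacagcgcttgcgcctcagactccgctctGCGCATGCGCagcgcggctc
The motifs were GCATGCGC, the core of the site of NRF1, a factor known to act on many respiratory genes; CCGGAAG, the core for ETS factors such as GABP; and AAGATGGC, the core for YY1. In the Cox6a1 window the NRF1 core was found on both strands in overlapping positions starting 162 and 160 bases before the start, and an ETS core 16 bases before it. In the Uqcrc1 window the NRF1 core lay 30 and 32 bases after the start, again on both strands of 1 palindrome. Neither the Cox5a nor the Cox7a1 window held any of the 3.

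RefSeq windows were matched to 75 of the 96 nuclear genes. The NRF1 core was in 16% of them and in 3.05% of all 27025 promoters of that length; the ETS core in 25.3% and 9.93%; and the YY1 core in 14.7% and 3.19%. At least 1 of the 3 was in 35 of the 75, 46.7%, against 14.9% of all. A match is a run of letters and says nothing of binding in these cells. The 12 genes with an NRF1 core included Atp5g2, Sdhb, Ndufa6 and Ndufa8, of which Ndufa6 was over 2-fold lower in CPCCs and Ndufa8 had a ratio of 0.11. Median ratios to mESCs with and without the NRF1 core were -0.48 and -0.45 in CPCCs and -0.44 and -0.43 in CBs. For the ETS core they were -0.43 and -0.47, and -0.26 and -0.51. For the YY1 core they were -0.38 and -0.47, and -0.43 and -0.44. A link of motif and level was not tested.

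Complex I was described by the role of its subunits. The 7 nuclear core subunits carry the flavin and the iron-sulfur clusters that pass electrons from NADH to ubiquinone. In CBs all 7 were below mESCs in every pool, with a median ratio of -0.68. The 29 accessory subunits that the name rule took in, which surround the core, had a median of -0.17 with 21 below 0. In CPCCs the order was the other way round, with a median of -0.25 for the core and -0.37 for the accessory set. Core and accessory subunits thus stood at different distances from mESCs in the 2 cultures, with ratios that overlapped between the sets.

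Ndufs1, which carries several of the iron-sulfur clusters, had 177, 190 and 134 CPM in the mESC pools, 182 and 141 in CPCCs and 131, 86.7 and 112 in CBs. Ndufv1, which binds NADH and the flavin, had 227, 164 and 178 in mESCs, 170 and 104 in CPCCs and 90.5, 118 and 112 in CBs. For both genes the CB pools were all below the mESC pools, and the CPCC pools overlapped with those of mESCs. Among other core subunits, the ratios of CBs to mESCs were -0.26 for Ndufs3, -0.43 for Ndufs7, -0.60 for Ndufs8 and -0.72 for Ndufv2.

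Ndufb8, an accessory subunit and the complex I gene with the highest CPM in all 3 cultures, had 529 CPM in mESCs, 398 in CPCCs and 367 in CBs. Ndufa6, another accessory subunit, was the 1 complex I gene 2-fold lower in CPCCs: 148, 260 and 221 CPM in the mESC pools and 93.5 and 95.7 in the CPCC pools, a ratio of -1.16 (-0.95 without mESC pool 2). Its CB value was 140 CPM. Ndufb11, an X-linked accessory subunit, had the highest ratio to mESCs of complex I in both cultures, with 74.1, 93.6 and 82.4 CPM in mESCs, 86.0 and 101 in CPCCs and 168, 141 and 176 in CBs. Every CB pool of Ndufb11 was above all other pools, and its ratio to mESCs was 0.92, with 0.75 under TMM factors and 1.03 without mESC pool 2 or CB pool 2.

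In CPCCs against mESCs the accessory genes next to Ndufb11 were near 0, namely Ndufa8 (0.11), Ndufb7 (0.0023) and Ndufa1 (-0.0036), which changed sign when single pools were left out. In CBs against CPCCs Ndufa5 was at 0.65, or 0.56 to 0.74 without single pools. The 8 assembly factors, which build complex I and are not part of it, had median ratios of -0.39 in CPCCs and -0.45 in CBs against mESCs. Ndufaf6 was the 1 past 2-fold, with 41.4, 38.4 and 49.0 CPM in mESCs, 22.8 and 24.1 in CPCCs and 19.8, 27.9 and 11.5 in CBs. Its CB ratio was -1.09, and came to -0.997 without mESC pool 3 and -0.73 without CB pool 3. Ndufaf4 was at 0.022 in CPCCs.

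Complex II has 4 subunits, all nuclear, and also serves in the citric acid cycle. Sdha, the flavoprotein that oxidises succinate, had 246, 240 and 232 CPM in the mESC pools, 191 and 218 in CPCCs and 148, 179 and 125 in CBs. Sdhd, a membrane anchor and the subunit with the highest CPM, had 467, 510 and 587 in mESCs, 469 and 392 in CPCCs and 301, 314 and 299 in CBs. Both were lower in every CB pool than in any other pool, by -0.67 and -0.76 relative to mESCs. Sdhb, the iron-sulfur subunit, had a ratio of -0.26 and the anchor Sdhc -0.18, and their pools overlapped with those of mESCs or CPCCs.

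Complex III was below mESCs for all 8 genes in both cultures. Uqcrc1, a core protein of the matrix side, had 663, 578 and 631 CPM in the mESC pools, 547 and 446 in the CPCC pools and 289, 268 and 261 in the CB pools. The 3 cultures did not overlap for Uqcrc1, and its ratios were -0.33 in CPCCs and -1.20 in CBs against mESCs. Uqcrc2, the other core protein, was at -0.32 and -0.42, and Uqcrfs1, the Rieske iron-sulfur protein, at -0.46 and -0.66.

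The small subunits of complex III split by culture. Uqcr10 had 378, 448 and 459 CPM in mESCs, 241 and 203 in CPCCs and 216, 201 and 215 in CBs, so that both differentiated cultures were alike. Uqcrq, which contacts the quinone-binding part, had 371, 390 and 420 in mESCs, 393 and 244 in CPCCs and 207, 199 and 181 in CBs, with CPCC pool 1 among the stem cell values. Uqcrb had 425, 689 and 526 in mESCs, 313 and 244 in CPCCs and 297, 269 and 366 in CBs. The CB ratios of Uqcr10 and Uqcrq, -1.03 and -1.02, were at the limit and came to -0.99 and -0.98 without mESC pool 3; that of Uqcrq was -0.96 without CB pool 3, and that of Uqcr10 -0.99 without mESC pool 2 or CB pool 2. When all cells counted equally they were -0.93 and -0.95. The CPCC ratio of Uqcrb, -1.01, was -0.77 without mESC pool 2 and -0.83 without CPCC pool 2. Uqcr10 was at -0.95 in CPCCs and passed 2-fold without mESC pool 1 (-1.03) or CPCC pool 1 (-1.08). Uqcrb was the complex III gene with the highest CPM in CBs, and Uqcrc1 in mESCs and CPCCs.

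Cox5a had the largest difference among abundant complex IV genes. It encodes a subunit that lies on the matrix face of cytochrome c oxidase. Its CPM was 750, 1013 and 907 in the mESC pools, 434 and 265 in the CPCC pools and 205, 254 and 139 in the CB pools. The order mESC, CPCC, CB held for every pool, with ratios of -1.37 and -2.19 against mESCs. Between CBs and CPCCs the ratio was -0.82, and it was -0.43 without CPCC pool 1, -1.14 without CPCC pool 2 and -1.12 without CB pool 2. The median cell had 859, 318 and 170 CPM, so the order did not rest on a few cells.

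Its partner subunits differed less between cultures. Cox4i1, the subunit that binds Cox5a and the complex IV gene with the highest CPM in CPCCs and CBs, had 833 CPM in each mESC pool, 804 and 579 in CPCCs and 599, 937 and 619 in CBs. Cox5b, the zinc-binding subunit, had 142, 198 and 212 CPM in mESCs, 144 and 122 in CPCCs and 127, 150 and 124 in CBs, with overlap between all cultures. In mESCs Cox5a stood above Cox4i1 per kilobase of transcript, at 1394 against 1103 CPM per kb. In CBs the highest of complex IV was Cox4i1, at 979 CPM per kb. Cox7a2, the general form of subunit 7a, was at -1.02 in CPCCs (-0.94, -0.93 and -0.92 without mESC pool 2, mESC pool 3 or CPCC pool 2) and -0.87 in CBs (-1.02 without mESC pool 1). Cox6c2, an extra copy annotated as a pseudogene in RefSeq, was at -1.05 in CPCCs (-0.99, -0.96 and -0.91 without mESC pool 2, mESC pool 3 or CPCC pool 2) and -0.66 in CBs, and its reads cannot be told from those of the near copy Cox6c where the sequences match. Cox7a2l, which links complexes III and IV into supercomplexes, was at -0.097 in CPCCs and 0.42 in CBs.

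Several complex IV subunits exist in a general form and in a form tied to a tissue. Cox7a1, the heart and skeletal muscle form of subunit 7a, was highest in stem cells: 37.4, 45.7 and 44.5 CPM in the mESC pools, 6.70 and 4.92 in CPCCs and 2.90, 5.74 and 2.06 in CBs. All 3 mESC pools were more than 5-fold above every other pool. The ratios to mESCs were -2.69 in CPCCs and -3.23 in CBs. After every cell was thinned to 430000 counts and shallower cells were left out (22, 18 and 22), Cox7a1 had a count in 97.9% of mESCs, 54.1% of CPCC cells and 13.3% of CB cells. The exact 95% binomial intervals were 94.8% to 99.4%, 46.0% to 62.1% and 9.05% to 18.7%. Without thinning the shares were 92.6%, 58.3% and 12.5%. Per kb of transcript, Cox7a1 made up 12.7% of Cox7a1 and Cox7a2 together in mESCs, 3.85% in CPCCs and 2.24% in CBs.

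Cox6a2, the heart and muscle form of subunit 6a, was under the 5 CPM limit, with 0.034 CPM in mESCs, 0.855 in CPCCs and 4.86 in CBs. Its ratio of CBs to mESCs was 2.502, and it passed the limit without CB pool 3 (3.19), without fibroblast-marker cells or with mitochondrial genes left out of the total. It had a count in 6 of 232 CB cells, and 1 of them held 65.9% of its CB counts. The 8 CB cells with at least 5 cardiomyocyte markers at 10 or more counts held 98.2% of those counts, and without them its level was 0.0894 CPM. Within those 8 cells it stood at 116 CPM, against 396 for the general form Cox6a1. Cox8b, the muscle form of subunit 8, has no value in the tables used here. The general form Cox8a was at 620, 346 and 423 CPM.

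Cox4i2, an oxygen-responsive form of subunit 4, and Ndufa4l2, a hypoxia-induced relative of the complex IV subunit Ndufa4, were the 2 genes over 2-fold higher in CBs than in mESCs. Cox4i2 had 0.036, 0.588 and 1.34 CPM in mESCs, 0.112 and 2.95 in CPCCs and 7.86, 6.10 and 24.3 in CBs, a ratio of 3.21 to mESCs and 2.56 to CPCCs. Without single pools these ran from 2.23 to 3.64 and from 1.57 to 3.77. It still made up 1.94% of Cox4i1 and Cox4i2 per kb in CBs. Ndufa4l2 had 1.47, 13.5 and 28.5 CPM in mESCs, 0.172 and 8.10 in CPCCs and 57.4, 4.95 and 236 in CBs. The CB pools of Ndufa4l2 overlapped with those of both other cultures, and its ratio to mESCs, 2.91 over all pools, was 0.59 without CB pool 3; the ratio of CPCCs to mESCs, -1.52, was -0.73 without CPCC pool 1 and -0.79 without mESC pool 3.

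The forms known from testis were lowest in CBs. Cox6b2 had 35.6, 55.5 and 52.9 CPM in mESCs, 30.2 and 39.9 in CPCCs and 28.4, 14.1 and 14.4 in CBs, a ratio of -1.47 to mESCs and -1.02 to CPCCs. The ratio to CPCCs was -0.81 without CPCC pool 2, -0.89 without CB pool 2 and -0.88 without CB pool 3. In CPCCs 1 cell held 20.6% of its counts. Cox7b2 had 5.33 CPM in mESCs, 0.960 in CPCCs and 0.106 in CBs, the last from 1 cell; its CPCC ratio of -1.69 was -0.93 without mESC pool 2. Cox8c had 0.313 and 0.536 CPM in mESCs and CPCCs and was not listed in CBs.

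**Figure D2:**
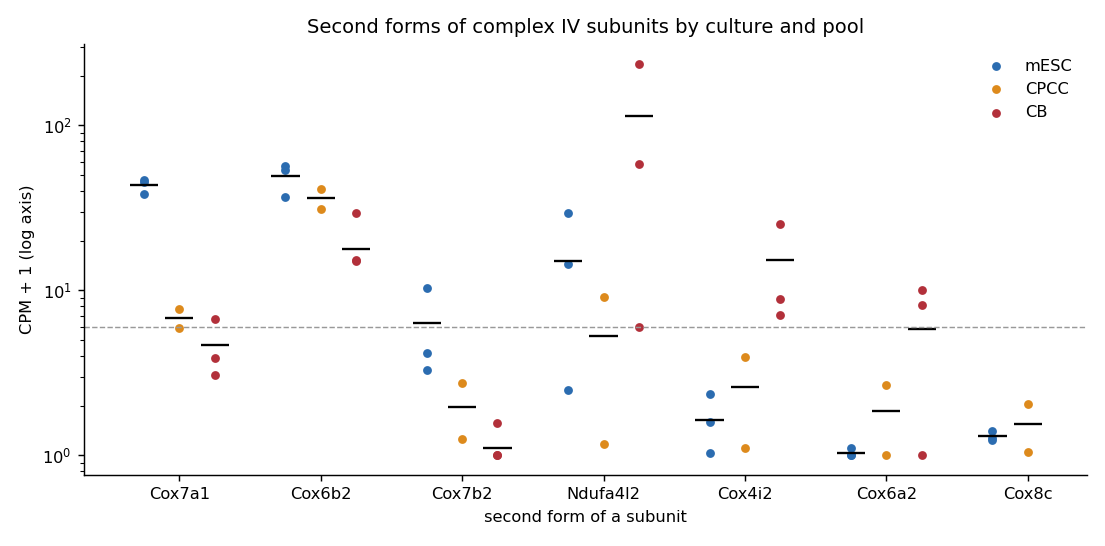
CPM + 1 (log axis) of the tissue forms of complex IV subunits, 1 point per pool and a black bar for the whole culture; the dashed line marks 5 CPM. Cox7a1 lies far higher in the 3 mESC pools (37.4 to 45.7 CPM) than in all other pools, and the CB pools of Ndufa4l2 are spread from 4.95 to 236 CPM.

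Atp5b, the catalytic beta subunit of ATP synthase, had the highest CPM of the nuclear set in all 3 cultures: 3855, 3769 and 3393 CPM in the mESC pools, 2926 and 1989 in CPCCs and 1308, 1692 and 1236 in CBs. Atp5a1, the alpha subunit, had 1895, 1782 and 1611 in mESCs, 1342 and 884 in CPCCs and 689, 745 and 662 in CBs. The pools of the 3 cultures did not overlap for either gene, and the CB ratios to mESCs were -1.37 and -1.34. Atp5c1, the gamma subunit of the rotating shaft, was at 660, 446 and 425 CPM, so CBs and CPCCs were close.

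The membrane ring of complex V is built of subunit c, which 3 genes encode with the same mature protein. Atp5g1 had 331, 319 and 399 CPM in mESCs, 204 and 117 in CPCCs and 91.1, 115 and 92.9 in CBs, with ratios of -1.12 and -1.77. Without CPCC pool 2 the first of these was -0.76. Atp5g3 had 796, 505 and 496 CPM and Atp5g2 41.1, 25.4 and 36.4. Per kb of transcript Atp5g3 made up 88.5%, 90.1% and 89.2% of the 3, so the lower level of Atp5g1 moved its own part from 5.90% to 4.34% and 2.79%. At the other end, Atp5e, the epsilon subunit, had a ratio of 0.36 in CBs against mESCs, and Atp5md, a small accessory subunit, 0.20 against mESCs and 0.65 against CPCCs; the Atp5md ratio to mESCs was -0.03 with DESeq2 size factors.

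The mitochondrial mRNAs did not follow the nuclear genes. All 13 together took 4.45% of counts in mESCs, 4.30% in CPCCs and 4.83% in CBs. The pools ran from 3.07% to 5.16% in mESCs, were 3.17% and 5.36% in CPCCs, and ran from 4.49% to 5.09% in CBs, so all 3 cultures overlapped. The log2 ratios of the share, -0.05 in CPCCs and 0.12 in CBs against mESCs, changed sign with pools left out (-0.49 to 0.27 and -0.07 to 0.24), and the CB ratio was -0.05 with TMM factors. No order of the 3 cultures can be read from this share.

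By complex, the mitochondrial mRNAs of complex I took 1.01%, 1.09% and 1.32% of counts in mESCs, CPCCs and CBs, those of complex IV 2.48%, 1.96% and 2.21%, and those of complex V 0.484%, 0.499% and 0.614%. In CBs 11 of the 13 had a ratio above 0 to mESCs, 10 with TMM factors, where 58% of all genes were above 0. Their median was 0.34 against 0.27 over all genes, and it was 0.17 with TMM factors, 0.11 with DESeq2 size factors and 0.082 when all cells counted equally, where the medians of all genes were 0.10, 0.048 and 0.28. Above the median of all genes were 10 of the 13, and 3 when all cells counted equally. In 6 of them every CB pool was above every mESC pool, against 33% of all genes. In CPCCs 5 of the 13 were above 0. None of the 13 passed 2-fold against mESCs in either culture; without CPCC pool 1 mt-Cytb did in CPCCs (1.03), and without CPCC pool 2 mt-Co1 did (-1.10).

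Per kb of transcript, mt-Co1, the catalytic subunit of complex IV, was the highest mitochondrial mRNA in mESCs at 9569 CPM per kb, and mt-Co3, another core subunit of that complex, in CPCCs and CBs at 7659 and 9184. In CPCCs 1 cell held 28% of the mt-Co3 counts, and in the median CPCC cell mt-Co3 (4887 CPM per kb) was below mt-Atp6 (5800) and mt-Co1 (5603). mt-Co2, which takes the electrons from cytochrome c, was at 4935, 3699 and 4914. mt-Atp6, the proton channel subunit of complex V, was at 6887, 7110 and 8727, and mt-Atp8, whose reading frame overlaps it, at 740, 711 and 962. mt-Cytb, cytochrome b of complex III, was at 4133, 6612 and 6057.

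The complex I mRNAs were uneven. mt-Nd1 was at 5194, 5783 and 6591 CPM per kb, mt-Nd4 at 1679, 1960 and 2298 and mt-Nd2 at 1112, 935 and 1494. mt-Nd5 was at 641, 686 and 774, and mt-Nd6, the 1 subunit encoded on the other strand and overlapping the end of mt-Nd5, at 537, 464 and 686. mt-Nd4l, which overlaps mt-Nd4, was the lowest at 49.4, 48.6 and 60.6. Reads were not stranded, so the overlapping pairs cannot be fully separated.

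Pool values are given for mt-Nd3, which had the highest ratio of the 13 in CBs against mESCs, mt-Cytb, which had the highest in CPCCs, and mt-Co1, which had the lowest in CBs. mt-Nd3 had 182, 250 and 232 CPM in mESCs, 170 and 136 in CPCCs and 329, 419 and 319 in CBs. All CB pools were above the rest and both CPCC pools below, and CBs against CPCCs gave 1.23, or 0.82 with the same weight for every cell. mt-Cytb had 4230, 4916 and 5012 CPM in mESCs, 5304 and 9682 in CPCCs and 7494, 6332 and 7233 in CBs, a CPCC ratio of 0.68. In CPCCs 1 cell held 25.8% of the mt-Cytb counts, and the ratio of the medians over cells was 0.31. mt-Co1 had 7634, 17839 and 18376 CPM in mESCs, 6902 and 14988 in CPCCs and 12329, 9402 and 13092 in CBs. Its CB ratio to mESCs was -0.36, from -0.65 to -0.16 without single pools and -0.69 when all cells counted equally, with pools that overlapped with those of mESCs. Its CPCC ratio was -0.42, from -1.10 to 0.020 without single pools.

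**Figure D3:**
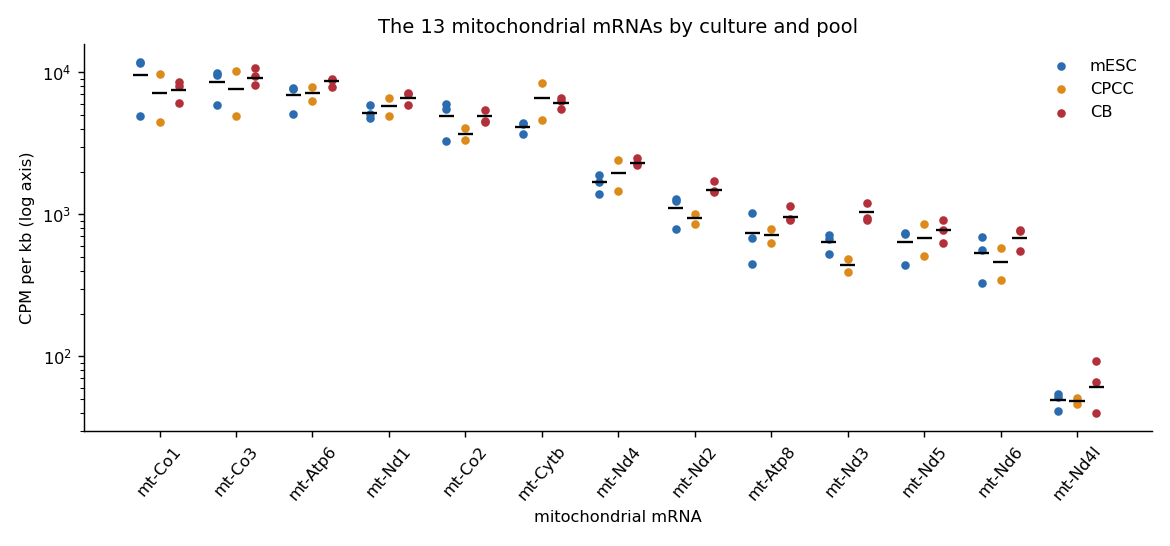
CPM per kb (log axis) of the 13 mitochondrial mRNAs, 1 point per pool and a black bar for the whole culture. The genes differ far more than the cultures do, from 49.4 (mt-Nd4l) to 9569 (mt-Co1) CPM per kb in mESCs, and the CB pools of mt-Nd3 lie above those of mESCs and CPCCs.

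Part of the mitochondrial signal was assigned to a copy of mitochondrial DNA in the nuclear genome. Between positions 24611535 and 24616197 of chromosome 1 (GRCm38), 7 genes annotated as pseudogenes match mitochondrial genes: 6 with no mismatch over the aligned length, and Gm29216, the partner of mt-Co1, with 1 mismatch in 483 bases. They took 1.50%, 1.24% and 1.64% of counts, which is 25.2%, 22.4% and 25.3% of the copies and the 13 mRNAs together. For mt-Co3 more counts lay in the copy, Gm28437, than in the mitochondrial gene (56.5%, 54.8% and 55.8% of both), and for mt-Co1 4.40% to 11.3%. Reads from such sequences cannot be told apart. Since the CPCC table holds whole counts and the others hold estimated counts, reads that fit several places may have been assigned differently in CPCCs, which bears on the CPCC ratios of these genes and of nuclear genes with near copies. With the copies added, mt-Co3 was the highest mRNA in all 3 cultures, and the mt-Nd3 ratio of CBs to CPCCs was 1.34.

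The balance of the genomes was taken in each cell with at least 100000 counts, as the log2 ratio of summed mitochondrial to summed nuclear counts. Its median was 0.35 in 203 mESCs, 0.68 in 169 CPCC cells and 1.29 in 219 CB cells, which are ratios of 1.28, 1.60 and 2.45. The exact 95% intervals of these medians were 0.26 to 0.46, 0.62 to 0.79 and 1.20 to 1.40. They cover only the sampling of cells within these samples, and single cells were spread more widely. Pool medians were 0.22, 0.62 and 0.14 in mESCs, 0.60 and 0.79 in CPCCs and 1.55, 1.07 and 1.32 in CBs. The CB pools were above all others, and the mESC and CPCC pools overlapped. Mitochondrial counts exceeded nuclear ones in 75.9% of mESCs, 92.9% of CPCC cells and 95.4% of CB cells.

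The median nuclear share per cell was 2.73%, 1.99% and 1.77%, and the median mitochondrial share 3.40%, 3.18% and 4.47%. By pool, the median mitochondrial share was 2.93%, 4.57% and 3.13% in mESCs, 3.19% and 3.18% in CPCCs and 4.75%, 3.997% and 4.66% in CBs. The mESC pools overlapped with those of both other cultures. In sums over each culture, the ratio of mitochondrial to nuclear counts was 1.58, 2.21 and 2.67 for all complexes. It was 1.36, 1.92 and 2.21 for complex I, 1.51, 3.54 and 3.79 for complex III, 4.17, 5.45 and 5.71 for complex IV and 0.466, 0.715 and 1.10 for complex V. The pools did not keep one order of the cultures. Over all complexes CPCC pool 2 (2.96) was above every CB pool (2.37 to 2.91), and CPCC pool 1 (1.51) was among the mESC pools (1.19 to 1.77). CPCC pool 2 was also above all CB pools for complexes III and IV, at 5.05 and 7.87, and CPCC pool 1 was at 3.31 for complex IV, among the mESC pools (2.95 to 4.76). For complex V every CPCC pool lay between those of mESCs and CBs. In CPCC pool 2, 1 cell with 75% mitochondrial counts held 19.0% of the counts of the 13 genes in all CPCC cells. Without it the pool was at 2.09 over all complexes and 3.07 for complex III, below every CB pool, and at 5.49 for complex IV, among them (4.73 to 6.52). These are counts of reads, which scale with transcript length, and not numbers of molecules.

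**Figure D4:**
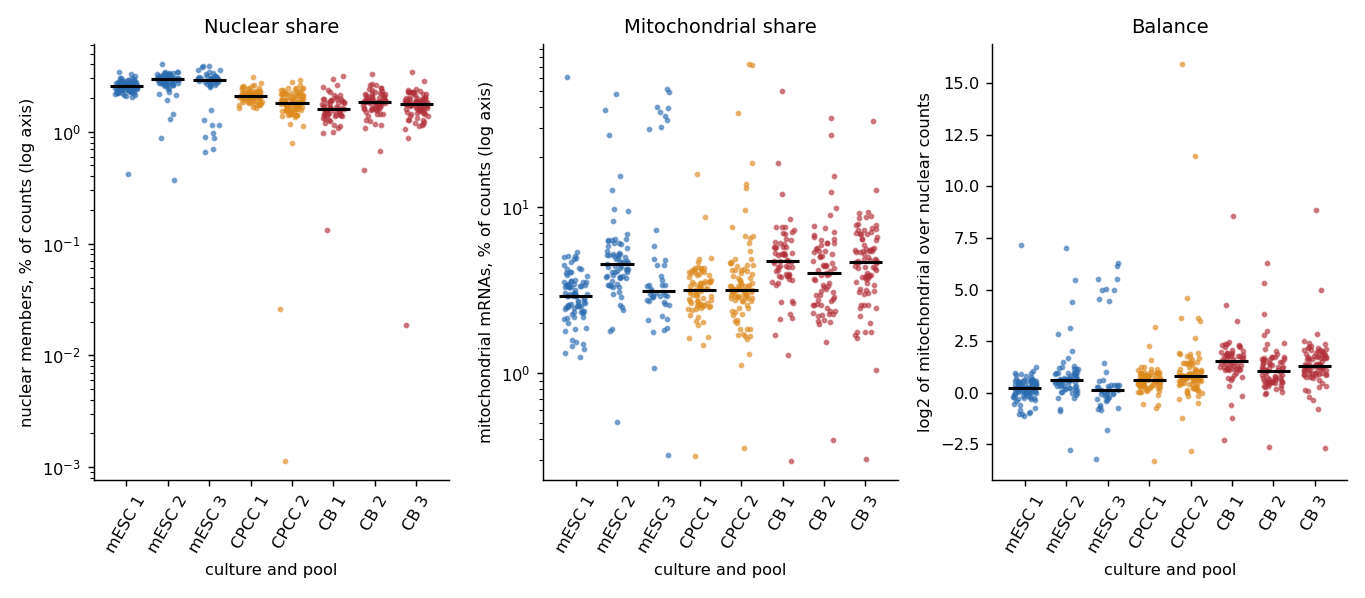
Nuclear share (left, log axis), mitochondrial share (middle, log axis) and balance (right, log2 of mitochondrial over nuclear counts) of each cell with at least 100000 counts, by pool; black bars are medians. Nuclear shares are highest in the mESC pools, mitochondrial shares overlap, and the median balance of the CB pools (1.07 to 1.55) lies above that of all other pools.

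Across cells of 1 culture, the shares of nuclear complexes had positive rank correlations. Spearman's rho between pairs of nuclear complexes I, III, IV and V ran from 0.50 to 0.86 over 203 mESCs, from 0.51 to 0.71 over 169 CPCC cells and from 0.59 to 0.68 over 219 CB cells, with the highest value for complexes I and IV in each. Between complexes I and II it was 0.38, 0.31 and 0.36. Between the nuclear and mitochondrial shares rho was -0.06, -0.09 and -0.06, while Pearson's r was -0.77, -0.56 and -0.37. Without the cells over 25% mitochondrial, rho was 0.14, -0.038 and 0.0039. These are descriptions: all shares of a cell have the same library and total. Cells with more counts had higher nuclear shares in mESCs (rho 0.47) and lower mitochondrial shares in CBs (rho -0.23). The balance was lower in cells with more counts, with rho of -0.24, -0.12 and -0.31 in mESCs, CPCCs and CBs. Cells over 25% mitochondrial numbered 13, 3 and 5. Their median nuclear share was 0.892%, 0.0262% and 0.451%, against 2.77%, 1.99% and 1.78% in the others, and their median counts were 602175, 233282 and 688895. Without them the balance medians were 0.30, 0.67 and 1.28.

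The cultures are mixtures, so the nuclear share was also read in cells that carry at least 5 markers of a list at 10 or more counts (3 for smooth muscle). In CPCCs 93 of 169 cells carried pluripotency markers, and their median nuclear share was 2.08%, against 2.73% in the 199 mESCs that did. It was 1.67% in 30 CPCC cells with fibroblast markers, 1.69% in 17 with macrophage markers and 2.02% in 57 with epithelial markers. These groups overlap: 43 of the 93, 29 of the 30, 4 of the 17 and 51 of the 57 also carried markers of another list. Within CPCC pool 2 it was 1.98% in 33 cells with pluripotency markers and 1.65% in 26 with fibroblast markers. Restricted to CPCC cells with pluripotency markers, the log2 ratio of the summed share to mESCs was -0.43, and in the other cells -0.63. The lower share was therefore also measured in CPCC cells with stem cell markers.

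Cox5a showed the same order: 903 CPM in mESCs with pluripotency markers, 433 in CPCC cells with them and 254 in those with fibroblast markers. Cox7a1 was at 42.7, 8.14 and 1.65 CPM in these groups. In CBs no cell carried 5 pluripotency markers. The 109 cells with fibroblast markers had a median nuclear share of 1.63%, the 73 with epithelial markers 1.88%, the 22 with endothelial markers, all of pool 2, 1.81%, and the 8 with cardiomyocyte markers, 7 of them of pool 2, 2.18%. All of these medians lay below those of the mESC pools. Without the fibroblast-marker cells the CB ratio to mESCs was -0.56.

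Ndufa4l2 and Cox4i2 differed by group within CBs. Ndufa4l2 was at 167 CPM in cells with fibroblast markers, 93.5 in those with epithelial markers, 5.59 in those with cardiomyocyte markers and 0 in those with endothelial markers. Cox4i2 was at 22.8, 3.50, 5.88 and 2.30 CPM. The summed fibroblast markers were lowest in CB pool 2, at 482 CPM, and so was Ndufa4l2; whether the cells of that kind set its level was not tested. The groups were not spread alike over the pools, with 47, 9 and 53 of the 109 fibroblast-marker cells in pools 1 to 3. Within pool 2 Ndufa4l2 was at 6.30 CPM in cells with cardiomyocyte markers, 1.79 with fibroblast and 1.19 with epithelial markers, so the order over all pools did not hold there. Cells with fibroblast markers had 64.7 and 252 CPM in pools 1 and 3. In CBs 40 of the 109 cells with fibroblast markers, 18 of the 73 with epithelial, 3 of the 22 with endothelial and 4 of the 8 with cardiomyocyte markers also carried those of another list. Fewer cells of a kind and less RNA per cell cannot be told apart in the sums.

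**Figure D5:**
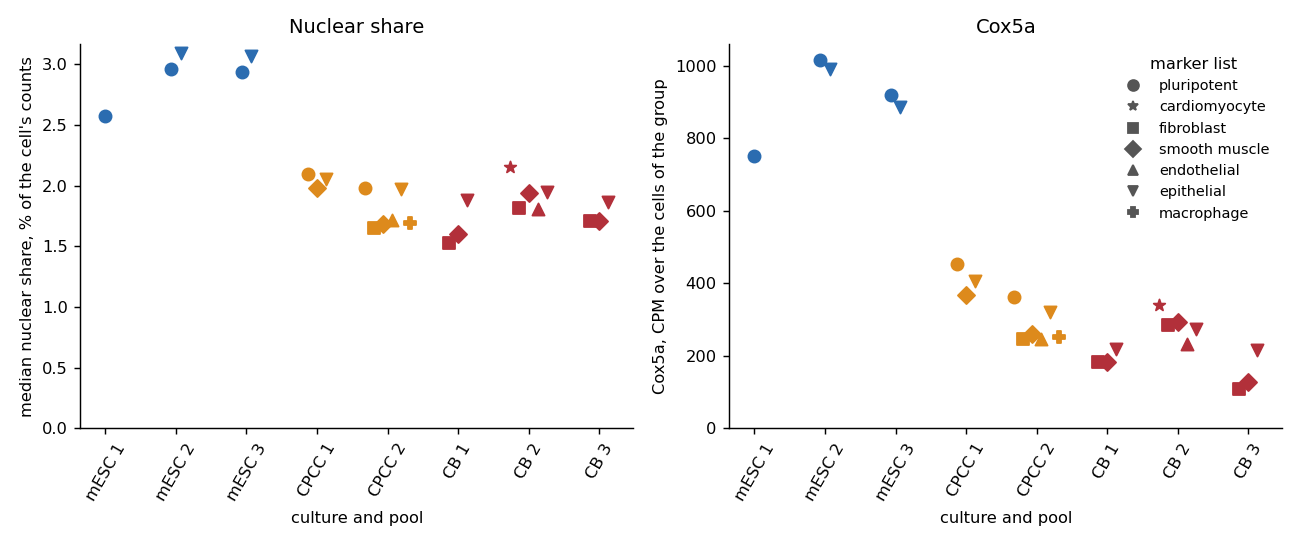
Median nuclear share (left, % of the cell's counts) and Cox5a (right, CPM) of cells that carry markers of a list, by pool; symbols are marker lists and colours are cultures, and groups of few cells are not drawn. Every CPCC and CB group lies below the mESC groups in both panels, including CPCC cells with pluripotency markers (Cox5a 454 and 361 CPM in pools 1 and 2).

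Genes outside the name rule that build or serve the complexes were counted in the same way. Of 38 further assembly factors 3 were higher and 6 lower by 2-fold in CBs than in mESCs, with a median of -0.16, where 31.4% of all genes were higher and 15.2% lower with a median of 0.27. These shares of all genes hold for the lists that follow too; for CBs against CPCCs they were 20.4% higher and 10.1% lower, and for CPCCs against mESCs 17.8% and 7.94%. Lower were Sco1 (-1.91), a copper chaperone of complex IV, Coa7 (-1.63), Taco1 (-1.61), which aids translation of mt-Co1, Cox18 (-1.13), Cox17 (-1.13), the copper carrier with the highest mESC level of the list (187 CPM), and Nubpl (-1.05), an iron-sulfur factor of complex I. Higher were Sco2 (1.55), Cox19 (1.19) and Cox20 (1.04); with DESeq2 size factors Cox19 and Cox20 came to 0.96 and 0.82, and with TMM factors Cox20 to 0.88. The paired copper chaperones thus lay in opposite directions, with Sco1 at 53.3, 30.7 and 13.4 CPM and Sco2 at 5.79, 13.9 and 18.8 in the 3 cultures. In CPCCs against mESCs Sco2 (1.13) was the 1 past 2-fold. In CBs against CPCCs 5 were lower: Taco1, Sco1, Ecsit, Coa7 and Cox18, from -1.23 to -1.04.

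Of 16 genes for the expression and upkeep of mitochondrial DNA, 5 were lower in CBs than in mESCs and 0 higher, with a median of -0.69. They were Supv3l1 (-1.60), a helicase of RNA decay, Tefm (-1.41), the elongation factor, Tfb1m (-1.12), Pnpt1 (-1.05) and Polrmt (-1.02), the RNA polymerase. Ssbp1, which coats single-stranded mitochondrial DNA, had the highest CPM, 172 in mESCs and 113 in CBs. None passed 2-fold in CPCCs against mESCs, and Supv3l1 (-1.22) and Tefm (-1.06) did in CBs against CPCCs. With TMM or DESeq2 factors Pnpt1 and Polrmt also did in CBs against CPCCs, and Lrpprc and Twnk in CBs against mESCs.

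Of 7 regulators with enough counts, Pprc1 (-1.50) and Gabpa (-1.38), the DNA-binding part of GABP, were lower in CBs than in mESCs and Gabpb2 (1.21; 0.98 with DESeq2 size factors) higher. Gabpa had the highest CPM of the list in mESCs, 93.6, and was at 35.4 in CBs. Nrf1 was at 64.9, 43.6 and 32.8 CPM. Its CB ratio to mESCs was -0.96 and passed 2-fold with TMM factors (-1.13) and DESeq2 size factors (-1.19). Ppargc1b was lower in CPCCs than in mESCs (-1.37), and against CPCCs the CB ratios were 1.65 for Ppargc1b, 1.24 for Gabpb2 and -1.14 for Gabpa. Ppargc1a, the coactivator known for mitochondrial gene expression in heart and muscle, was listed in CBs only, at 4.34 CPM.

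Of 13 citric acid cycle enzymes 3 were lower in CBs, among them Idh3a (-1.66) and Idh3g (-1.16), and 0 higher, with a median of -0.65; with TMM or DESeq2 factors 6 were lower, with Fh1, Mdh2 and Suclg2 past 2-fold as well. Mdh2 was the highest at 615, 580 and 314 CPM. Of 12 genes that carry electrons or bring them in, 6 were lower in CBs: Coq3 (-2.21), Coq7 (-1.16) and Coq5 (-1.03) of ubiquinone synthesis, Cyc1 (-1.35), the cytochrome c1 of complex III, Cycs (-1.12), cytochrome c, and Dhodh (-1.21). Etfdh, which passes electrons from fatty acid oxidation to ubiquinone, was higher in CBs (1.52) and CPCCs (1.11). Cyc1 stood at 514, 378 and 202 CPM, the same order as Uqcrc1. Against CPCCs, Idh3a (-1.30), Coq3 (-1.28) and Dhodh (-1.23) were lower in CBs, and with TMM or DESeq2 factors Mdh2, Cyc1 and Coq5 as well. In CPCCs against mESCs 0 of the 13 cycle enzymes passed 2-fold, and the median was -0.40.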

How the data were processed

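The authors sequenced C1 single-cell cDNA (SMART-Seq v4, Nextera XT, paired HiSeq2500 reads) and aligned it with STAR 2.7 in Partek Flow to GRCm38 with Ensembl 97 annotation. The mESC and CB tables the authors deposited hold estimated counts, of which 26.4% and 27.4% of values above 0 were not whole (tolerance 0.001); the deposited CPCC table holds whole counts. How reads that fit several places were assigned is not given in the sources used here and may differ between these tables. Tables list genes that reach 1 count in some cell. From the CPCC table, 208 blank rows, 23 rows whose names had turned into dates (0.139% of counts) and 2 empty columns were left out. Cells come from 3 mESC, 2 CPCC and 3 CB pools by column name; no column name occurs in 2 tables (0 shared).

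Counts were summed per culture and pool and scaled to a total of 1000000 (CPM). Ratios are log2 of CPM + 1 for genes with at least 5 CPM in 1 culture of the pair; a gene counts as higher or lower from 2-fold on. The 1 sample per group allows no test. Intervals (95%, from Poisson, Clopper-Pearson or order statistics) cover counting error or the sampling of cells only. Doublets were not called. Detection was compared after thinning cells to 430000 counts. Lengths come from the median of the best-supported transcripts in GENCODE M21 (GRCm38), matched for 106 of 109 genes (not Atp5md, Atp5o and Atp5pb). Named were the mitochondrial mRNAs, members past 2-fold, the 5 highest and 5 lowest of each pair, tissue forms, core subunits and the highest member of each complex; of other lists, genes past 2-fold and the highest. Some genes that this rule names are not reported here. Values of other genes were chosen after they were seen. The members and lists were chosen with earlier results of these data known. Scripts (Python 3.11.15, numpy 2.4.6, pandas 2.3.3, scipy 1.17.1, biopython 1.88) were tested on simulated data. As alternatives, TMM factors (edgeR 4.0.16) and size factors (DESeq2 1.42.0, R 4.3.3) were computed on rounded sums, and weights, cell filters, totals, pseudocounts, the low-value filter, nuclear copies, assembly factors and single pools were varied.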

Additional observations from a re-analysis of the deposited data

How the results depend on the processing

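With 1 sample per culture and pools of unknown source, these values show how far single choices move a result, not its error between cultures. No paired analysis was possible because each group is 1 sample and the pools could not be mapped to the stem cell clones. Settings that split cells by markers were chosen after seeing the data.

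The log2 ratio of the nuclear share, -0.53 for CPCCs against mESCs, was -0.52 with TMM, -0.57 with DESeq2 factors, -0.48 with the same weight per cell, -0.54 without cells over 25% mitochondrial, without mitochondrial genes in the total or without assembly factors, -0.64 to -0.43 without single pools, -0.43 in CPCC cells with pluripotency markers and -0.63 in the others. For CBs against mESCs, -0.64, it was -0.81, -0.87, -0.59, -0.65 and -0.63 under the first 5 of these, -0.69 to -0.60 without single pools and -0.56 without CB cells with fibroblast markers. For CBs against CPCCs, -0.11, it was -0.29, -0.30, -0.11, -0.12 and -0.089, -0.21 to 0.0016 without single pools (above 0 without CPCC pool 1), -0.21 and -0.0056 with CPCC cells with and without pluripotency markers, and -0.025 without the fibroblast-marker cells.

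The mitochondrial ratio of CPCCs to mESCs, -0.05, was -0.034 with TMM, -0.084 with DESeq2 factors, -0.025 with equal weights, -0.067 in cells with 100000 counts, -0.077 without cells over 25%, -0.054 without mitochondrial genes in the total, -0.10 with nuclear copies, -0.49 to 0.27 without single pools (above 0 without mESC pool 2 (0.076), mESC pool 3 (0.050) or CPCC pool 1), and -0.43 and 0.23 in CPCC cells with and without pluripotency markers. For CBs against mESCs, 0.12, it reversed to -0.054 with TMM, -0.11 with DESeq2 factors and -0.16 with equal weights, and was 0.34 without cells over 25%, 0.13 without mitochondrial genes in the total, 0.12 with copies, 0.29 without fibroblast-marker cells and -0.075 to 0.24 without single pools (below 0 without mESC pool 1). For CBs against CPCCs, 0.17, it reversed to -0.019, -0.030 and -0.13 under those 3, and was 0.18 in cells with 100000 counts and without mitochondrial genes in the total, 0.42 without cells over 25%, 0.22 with copies, 0.34 without fibroblast-marker cells, -0.15 to 0.61 without single pools (below 0 without CPCC pool 1), and 0.55 and -0.11 with CPCC cells with and without pluripotency markers.

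Of members 2-fold lower in CPCCs than mESCs, 9, there were 4 with equal weights or a pseudocount of 10, 5 and 17 in CPCC cells with and without pluripotency markers and 4 to 14 without single pools; higher, 0, became 1 (mt-Cytb) in cells without these markers and 0 to 1 without single pools. Of 11 lower in CBs than mESCs, there were 18 with DESeq2 factors, which kept all 11, 8 with equal weights (without Uqcr10, Uqcrq and Cox7b2), and 8 to 14 without single pools. The 1 lower in CBs than CPCCs, Cox6b2, became 3 with TMM or DESeq2 factors, with Cox6b2 among them, 3 others (Atp5a1, Atp5b and Cox5a) with CPCC cells with pluripotency markers, 0 with equal weights or a pseudocount of 10, and 0 to 5 without single pools, with Cox6b2 lost without CPCC pool 2, CB pool 2 or CB pool 3.

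The median balance (0.35, 0.68 and 1.29) was 0.73, 1.03 and 1.73 with nuclear copies and 2.40, 2.698 and 3.65 as mean log2 of members. Without single pools it was 0.22 to 0.49, 0.60 to 0.79 and 1.24 to 1.38. The order of the cultures was kept under the first 2 settings, and the ranges without single pools did not overlap. Of the other lists, 5 higher in CBs than mESCs became 2 with DESeq2 factors (Cox19, Cox20 and Gabpb2 came under 2-fold), and 11 lower in CBs than CPCCs became 17 with TMM or DESeq2 factors. The cause was not tested for any of these.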
